A study of Rattus norvegicus with 12 samples.

Results

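The 53 genes described here encode proteins that copy DNA or divide the cell, and they were chosen by name from the 37209 gene symbols of a rat stroke count table. By role, 6 act in G1 (Ccnd1, Ccnd2, Ccne1, Ccne2, Cdk2 and E2f1), 17 in S phase, when DNA is copied, and 30 in mitosis or in the preparation for it. Every member was found in the table, had counts in every library and passed the filter on low counts, as did 17008 of the 37209 symbols (45.7%).

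RNA from the brains of Sprague Dawley rats, labelled postnatal day 21, was sequenced in 12 libraries, 3 in each of 4 groups. One stroke group had a middle cerebral artery occlusion (MCAO), which blocks the main artery of the cerebral cortex and striatum, and the other had a pontine infarction, a stroke of the brainstem. Each stroke group had its own sham-operated group, called sham LN (for MCAO) and sham PN (for pontine infarction) after the letters in the sample titles, so that the 2 comparisons share no controls. The labels give 3 rats for each stroke, name no drug, transgene or genotype, and do not give the dissected region or the time after surgery. Nothing in the labels says that the sham libraries came from separate animals, so p-values measure the spread between these libraries, which may be technical in part. The name of 1 column of the MCAO group matched no sample title by number, and that column is called the unnumbered MCAO library.

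A dividing cell passes through G1, copies its DNA in S phase and separates the copies in mitosis. D and E cyclins with their kinases release E2F transcription factors from the RB proteins, and E2F then switches on replication genes; many mitotic genes are held off until later by the DREAM repressor complex, which reads a short element called the cell cycle homology region (CHR), often beside CCAAT boxes. In the juvenile brain most neurons no longer divide, whereas oligodendrocyte precursors do, and microglia, reactive astrocytes, vessel cells and incoming leukocytes can divide after injury.

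The sequences just before the start sites show how S phase and mitotic members differ in elements that were not used to choose them. RefSeq promoters on the rat assembly GRCr8 were matched for 40 members, namely 14 S phase, 24 mitotic and 2 G1 genes, and the 250 bases before each start were searched on both strands for 3 elements. An E2F site (TTTGGCGC or TTTCGCGC or TTTCCCGC or TTTGCCGC) was present in 6 of 14 S phase promoters (42.9%), in 1 of 24 mitotic promoters (4.17%) and in 1.81% of all 27457 promoters. A CHR (TTTGAA or TTCGAA) was present in 3 of 14 S phase promoters (21.4%), in 11 of 24 mitotic promoters (45.8%) and in 17.3% of all promoters. The pentamer CCAAT was present in 10 of 14 S phase (71.4%) and 16 of 24 mitotic promoters (66.7%), against 34.3% of all promoters, and a CHR together with CCAAT in 9 of 24 mitotic (37.5%), 2 of 14 S phase (14.3%) and 6.22% of all promoters. With the 50 bases after the start included, the CHR share of the mitotic promoters was 70.8% and that of all promoters 19.5%. A match is only a run of letters, and no test was made of these shares.

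Mcm2 and Mcm5 are shown as S phase examples that rose after both strokes, and Cdk1, Mki67 and Top2a as mitotic examples that rose after pontine infarction. Capitals mark the matches on either strand, so that ATTGG is CCAAT and GCGCGAAA is TTTCGCGC on the other strand. Each run is printed 5′ to 3′ along its gene and ends at the base before the start. In Mcm2 and Mcm5 a pair of E2F matches on opposite strands overlaps, and in Mki67 a CHR runs into a CCAAT match. The Mcm2 promoter lies on the minus strand at chr4:122918095-122918344, that of Mcm5 on the plus strand at chr19:13488563-13488812, that of Cdk1 on the plus strand at chr20:19265043-19265292, that of Mki67 on the minus strand at chr1:199952594-199952843 and that of Top2a on the minus strand at chr10:84473094-84473343.
Mcm2: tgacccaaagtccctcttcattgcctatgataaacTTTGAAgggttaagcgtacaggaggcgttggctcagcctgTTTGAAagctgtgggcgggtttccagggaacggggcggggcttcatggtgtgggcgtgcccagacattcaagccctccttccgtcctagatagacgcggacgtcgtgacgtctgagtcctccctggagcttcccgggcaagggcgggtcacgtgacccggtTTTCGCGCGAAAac
Mcm5: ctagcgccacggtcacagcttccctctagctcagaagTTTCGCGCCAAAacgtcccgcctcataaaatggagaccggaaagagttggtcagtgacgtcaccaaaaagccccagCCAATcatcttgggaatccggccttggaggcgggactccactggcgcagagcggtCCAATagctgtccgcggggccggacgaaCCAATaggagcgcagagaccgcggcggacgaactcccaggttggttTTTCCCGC
Cdk1: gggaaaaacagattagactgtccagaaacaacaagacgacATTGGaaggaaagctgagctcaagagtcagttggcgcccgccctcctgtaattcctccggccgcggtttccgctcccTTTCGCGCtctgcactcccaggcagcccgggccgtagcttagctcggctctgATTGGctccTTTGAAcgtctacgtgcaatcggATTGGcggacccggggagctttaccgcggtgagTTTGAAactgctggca
Mki67: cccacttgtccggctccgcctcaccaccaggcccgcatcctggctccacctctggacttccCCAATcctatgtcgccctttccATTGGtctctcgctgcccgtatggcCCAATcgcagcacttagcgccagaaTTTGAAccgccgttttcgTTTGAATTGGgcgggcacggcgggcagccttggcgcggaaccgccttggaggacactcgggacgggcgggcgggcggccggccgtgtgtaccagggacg
Top2a: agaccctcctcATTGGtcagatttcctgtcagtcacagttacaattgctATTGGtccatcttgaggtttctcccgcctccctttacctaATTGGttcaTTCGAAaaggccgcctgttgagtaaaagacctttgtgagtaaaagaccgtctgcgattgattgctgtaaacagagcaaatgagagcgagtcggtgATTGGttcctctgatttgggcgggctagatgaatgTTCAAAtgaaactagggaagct
Cdk1 was the 1 mitotic promoter of the 24 with an E2F match, and it also held 2 CHR and 3 CCAAT matches. Mcm5 held 3 E2F and 3 CCAAT matches and no CHR, and Mcm2 2 E2F and 2 CHR matches and no CCAAT. Mki67 and Top2a each held 2 CHR, as many as Mcm2, and 4 CCAAT matches and no E2F match.

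The libraries held between 19805815 and 40400676 counts. Levels are given as CPM (counts per 1e+06 counts of the library, with library sizes scaled by the trimmed mean of M values, TMM), in the order library 1, library 2 and unnumbered for MCAO and libraries 1, 2 and 3 elsewhere. Changes are log2 ratios with their standard error (SE) from edgeR's quasi-likelihood test, called higher or lower at a Benjamini-Hochberg adjusted p under 0.05 over all 17008 genes. Tbr1, which marks forebrain neurons, had 42.9 to 95.0 CPM in sham LN and at most 0.264 CPM in the pontine infarction and sham PN libraries, where Hoxb2 and Hoxb3, which mark hindbrain, were detected. Of 6 such region genes tested, 1 rose after MCAO, by 5.73 on the log2 scale, and 1 fell after pontine infarction. Of all genes, 18.6% and 4.08% were called in either direction. En2, another region gene, was at 0 in all sham LN libraries but not in all MCAO libraries. Whether the tissue taken differed between a stroke group and its shams was not tested. The brain genes Gfap, Mbp, Rbfox3 and Snap25 were expressed in every library. Pontine infarction library 3 stood apart: Neurod1, a gene of young granule neurons, had 1.26, 0.421 and 70.8 CPM in the pontine infarction libraries, and the number of members called is given below without it as well. Of the X chromosome's protein-coding symbols, 590 of 605 (97.5%) were listed at 0 in every library, but all 53 members lie on autosomes. In such bulk libraries, fewer cells of a type and less RNA per cell cannot be told apart.

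**Figure D1:**
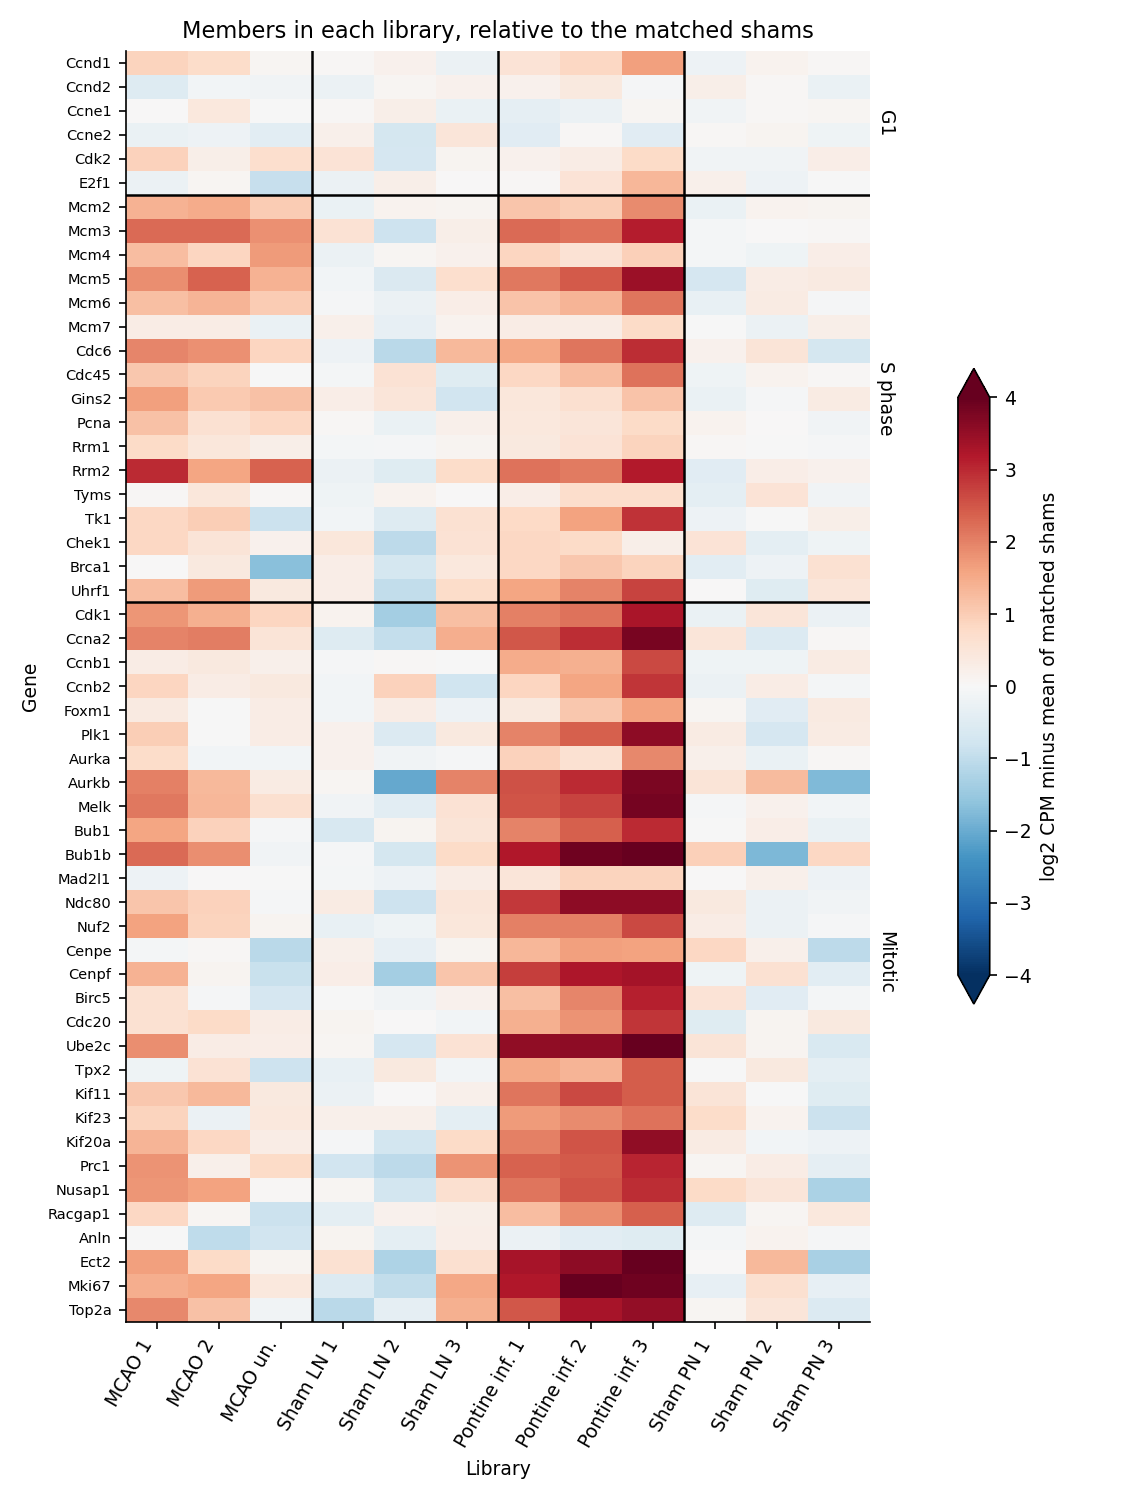
Log2 CPM of each of the 53 members (rows, by phase) in each of the 12 libraries (columns), minus the mean of the matched sham group, in red for higher and blue for lower. For a sham library the mean is that of the other libraries of its group. Colours saturate at 4 and -4. The rows Mcm2 to Mcm6 and Rrm2 are red in all 6 stroke libraries, and the darkest red cells are mitotic genes such as Ube2c and Bub1b in the pontine infarction libraries.

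After MCAO, 10 of 53 members rose and 0 fell, where 12.5% of all genes tested rose (1 member, Anln, was lower at an unadjusted p under 0.05 by edgeR, and 0 fell by DESeq2 or voom). Of the 10, 8 were S phase genes, with Rrm2, the small subunit of ribonucleotide reductase, at a log2 change of 2.44 ± 0.43, Mcm3 at 2.12 ± 0.32 and Mcm5 at 1.89 ± 0.39. Mitotic genes contributed 2 of 30 (Melk and Kif11) and G1 genes 0 of 6 (2 at an unadjusted p under 0.05 by edgeR, and 0 adjusted by DESeq2 or voom). The median log2 change was 1.14 over the S phase members, 0.78 over the mitotic members, -0.05 over the G1 members and -0.0018 over all genes tested. All 3 MCAO libraries lay above all 3 shams for 15 members, 10 S phase and 5 mitotic, and for 20.4% of all genes.

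Of the G1 members after MCAO, Ccnd1, the cyclin that couples growth signals to the cycle, had 71.8, 64.6 and 40.9 CPM against 39.8, 41.95 and 34.9 CPM in sham LN. Libraries 1 and 2 lay above the shams and the unnumbered library within them, and the log2 change of 0.60 ± 0.27 did not pass the test (adjusted p = 0.13). Ccnd2, its paralogue, had 30.7, 41.0 and 40.5 CPM against 39.8, 46.0 and 47.9 CPM, with overlap and a log2 change of -0.25 ± 0.17 (adjusted p = 0.31). Cdk2, the kinase that E cyclins activate, had 7.99, 4.89 and 6.72 CPM against 5.40, 3.04 and 4.36 CPM, and its lowest stroke library lay inside the sham range. Ccne1 (12.1 to 16.4 against 10.7 to 13.7 CPM), Ccne2 (3.72 to 4.39 against 3.63 to 6.39 CPM) and the transcription factor E2f1 (4.64 to 9.28 against 7.93 to 9.89 CPM) also overlapped with their shams, with adjusted p between 0.51 and 0.58 for E2f1 and Ccne1 and 0.34 for Ccne2.

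The replication fork genes made up most of the MCAO calls, 7 of 10. Mcm2 to Mcm7 encode the ring of the replicative helicase, and 5 of the 6 rose. Mcm3 had 13.04, 13.1 and 9.58 CPM in MCAO and 3.48, 1.78 and 2.95 CPM in sham LN, a 4.33-fold change (adjusted p = 0.0025). Mcm5 had 12.1, 17.1 and 8.76 against 3.13, 2.52 and 4.55 CPM (adjusted p = 0.0089), and in both genes every stroke library lay above every sham. Mcm2 had 18.0, 19.3 and 13.6 against 6.03, 7.23 and 7.15 CPM, with a log2 change of 1.32 ± 0.24 (adjusted p = 0.0058). Mcm4 rose by 1.30 ± 0.21 and Mcm6 by 1.21 ± 0.25 on the log2 scale, also without overlap, whereas Mcm7, the sixth subunit, had 19.5 to 29.2 against 20.05 to 25.98 CPM and a log2 change of 0.13 ± 0.20 (adjusted p = 0.68).

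Pcna, the sliding clamp that holds polymerases on DNA, had 60.5, 40.9 and 47.5 CPM in MCAO and 27.5, 23.9 and 29.8 CPM in sham LN. The groups did not overlap, and Pcna rose by 0.87 ± 0.17 on the log2 scale, the smallest change among the 10 calls (adjusted p = 0.0071). Gins2, a subunit of the complex that activates the helicase, rose by 1.30 ± 0.33 (adjusted p = 0.021). Cdc6, which loads the helicase, had a log2 change of 1.61 ± 0.56 with the lowest stroke and the highest sham library nearly equal, and did not pass the test (adjusted p = 0.067), and Cdc45, a helicase partner, had 0.73 ± 0.43 (adjusted p = 0.24).

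Among the genes that make DNA precursors, Rrm2 had 9.38, 3.55 and 6.05 CPM in MCAO against 1.001, 0.889 and 1.61 CPM in sham LN, a 5.43-fold rise (adjusted p = 0.0047). All stroke libraries lay above the shams, and library 1 was the highest. Rrm1, the large subunit of the same enzyme, had a log2 change of 0.49 ± 0.17 without overlap (adjusted p = 0.062), and the thymidylate synthase gene Tyms had 0.20 ± 0.24 (adjusted p = 0.59). Tk1, thymidine kinase, had 9.53, 10.7 and 2.90 CPM against 5.11, 4.22 and 7.11 CPM, so that libraries 1 and 2 lay above the shams and the unnumbered library below them. Uhrf1, which carries DNA methylation over to the new strand, had 8.37, 11.7 and 4.69 against 4.004, 2.22 and 4.97 CPM, with the unnumbered library inside the sham range, a log2 change of 1.14 ± 0.41 and an adjusted p of 0.070. Chek1, the checkpoint kinase of stalled forks (3.37, 2.67 and 2.08 against 2.32, 1.11 and 2.45 CPM), and the repair gene Brca1 (log2 change -0.22 ± 0.45) overlapped with their shams.

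Mitotic genes varied more between the MCAO libraries. The median over the 30 members of the ratio of the highest to the lowest MCAO library was 2.44, against 1.62 over the 17 S phase members. Library 1 was the highest of the 3 for 22 of the 30 mitotic members and the unnumbered library the lowest for 22. Mki67, the proliferation marker that coats mitotic chromosomes, had 7.22, 7.75 and 3.48 CPM in MCAO and 1.98, 1.59 and 5.32 CPM in sham LN. The unnumbered stroke library lay below sham library 3, and the log2 change of 1.06 ± 0.46 did not pass the test (adjusted p = 0.12). Top2a, the topoisomerase that untangles sister chromatids, had 9.67, 5.72 and 2.27 against 1.502, 2.11 and 4.90 CPM with the same overlap (log2 change 1.06 ± 0.53, adjusted p = 0.18).

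Melk, a mitotic kinase, had 2.84, 1.63 and 0.967 CPM after MCAO against 0.553, 0.482 and 0.803 CPM, did not overlap and rose by 1.56 ± 0.49 on the log2 scale (adjusted p = 0.046). Kif11, the motor that pushes spindle poles apart, had 1.64 to 3.16 against 1.11 to 1.38 CPM and rose by 1.002 ± 0.32 (adjusted p = 0.049). Cdk1, the kinase that drives entry into mitosis, had 3.95, 3.06 and 2.08 against 1.19, 0.556 and 1.99 CPM, and all stroke libraries lay above the shams, the unnumbered one narrowly, with an adjusted p of 0.082. Its partner Ccnb1 had 3.27, 3.45 and 3.05 against 2.58, 2.71 and 2.60 CPM, also without overlap, with a log2 change of 0.31 ± 0.32 (adjusted p = 0.51). Ccna2, the cyclin of S phase and G2, had 3.32, 3.45 and 1.16 against 0.606, 0.482 and 1.61 CPM, with the unnumbered library inside the sham range (log2 change 1.56 ± 0.56, adjusted p = 0.070).

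For several other mitotic members the unnumbered MCAO library lay within the sham range. Bub1b, a spindle checkpoint kinase, had 2.89, 2.17 and 0.484 CPM against 0.527, 0.371 and 0.803 CPM (adjusted p = 0.099), and Nuf2, of the kinetochore complex that grips microtubules, had 2.502, 1.48 and 0.822 against 0.659, 0.704 and 0.956 CPM (adjusted p = 0.095). Nusap1, a spindle protein, had 2.74, 2.47 and 0.774 against 0.790, 0.519 and 1.03 CPM (adjusted p = 0.091). For Ube2c, the ubiquitin conjugating enzyme of the anaphase promoting complex, library 1 alone lay above the shams, with 2.502, 0.790 and 0.774 against 0.659, 0.445 and 0.842 CPM. Cdc20, the activator of that complex, had 3.03, 3.36 and 2.42 against 2.05, 1.96 and 1.87 CPM, without overlap and with a log2 change of 0.58 ± 0.35 (adjusted p = 0.26). The other 18 mitotic members had log2 changes between -0.54 (Anln) and 1.04 (Aurkb), none called.

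Of the 10 MCAO calls, Mcm2, Mcm3, Mcm4, Mcm5, Mcm6, Pcna and Rrm2 were called with every single library left out and in every other setting tried, and Gins2, Melk and Kif11 were not. The 2 mitotic calls became 5 without the unnumbered library, 1 without MCAO library 2 (Melk) 3 without sham LN library 3 (Ccna2, Prc1 and Mki67) and 0 without sham LN library 1 or 2, and without MCAO library 1 the 1 mitotic call was Anln, lower.

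**Figure D2:**
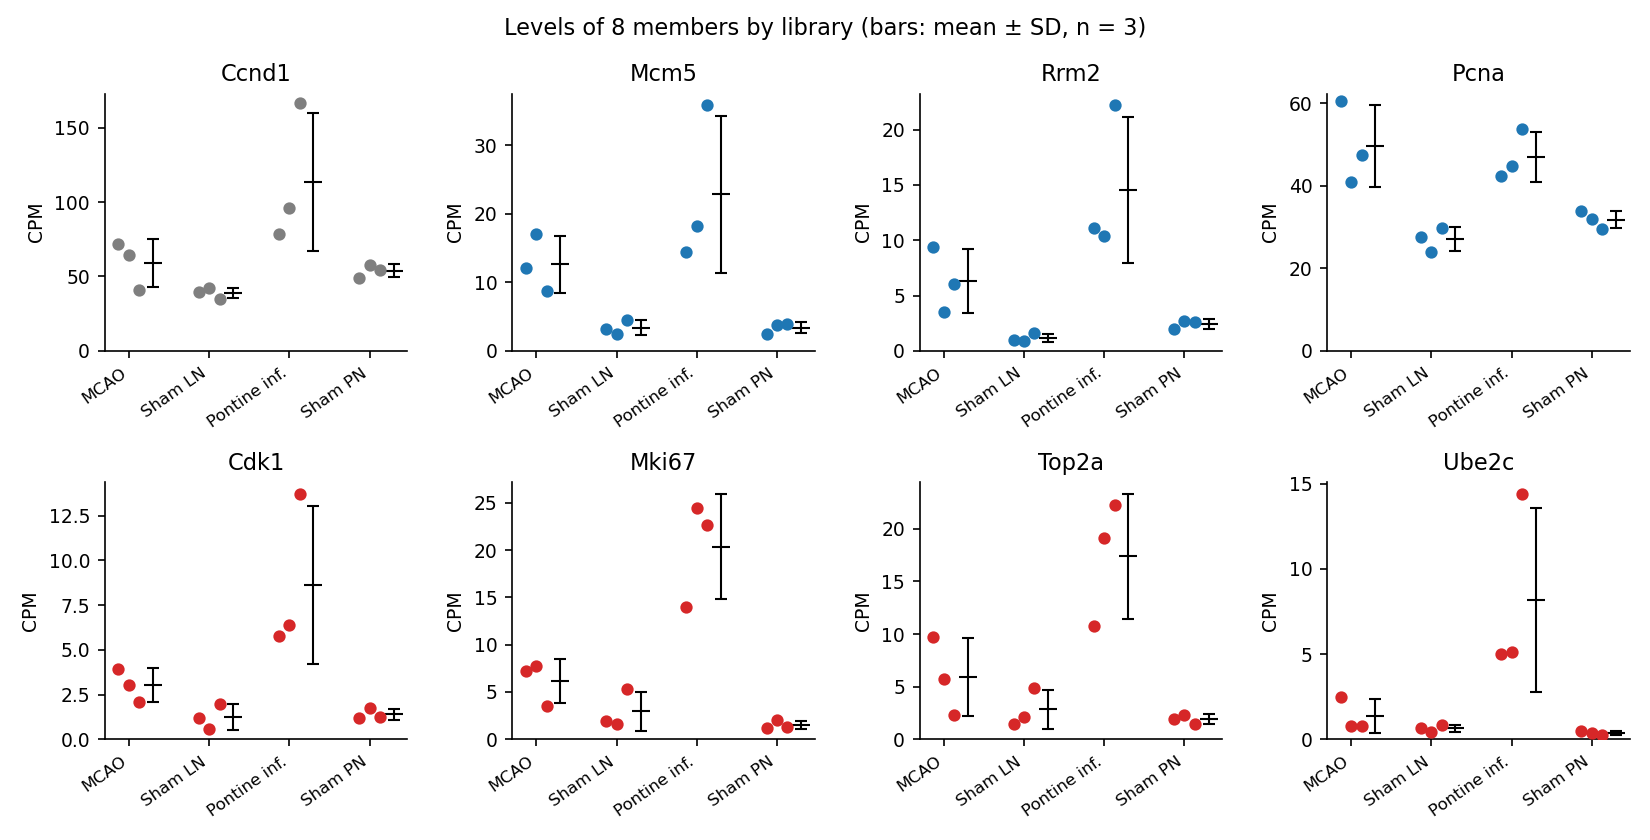
CPM of 8 members in each library (points, in library order within a group; the last MCAO point is the unnumbered library) with the group mean ± SD (n = 3 libraries). Mcm5 and Rrm2 lie above their shams in all 6 stroke libraries, whereas the Mki67 and Top2a points of MCAO overlap with those of sham LN.

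After pontine infarction, 32 of 53 members rose by edgeR and 0 fell by edgeR, DESeq2 or voom, where 3.21% of all genes tested rose by edgeR. At an unadjusted p under 0.05, edgeR also had 0 members lower. Mitotic genes made up 24 of the 32 (24 of 30 tested), with 7 of 17 S phase genes and 1 of 6 G1 genes. The largest changes were those of Ube2c, at a log2 change of 4.47 ± 0.63, Bub1b at 4.01 ± 0.72 and Ect2, an activator of the cleavage furrow, at 3.99 ± 0.66. The median log2 change was 2.58 over the mitotic members, 1.38 over the S phase members, 0.30 over the G1 members and -0.08 over all genes. All 3 stroke libraries lay above all 3 shams for 45 members, 29 mitotic, 15 S phase and 1 G1, and for 13.3% of all genes.

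Ccnd1 was the called G1 gene, with 78.6, 96.2 and 166 CPM in pontine infarction and 49.2, 57.6 and 54.7 CPM in sham PN. The groups did not overlap, library 3 was the highest, and the log2 change was 1.08 ± 0.27 (adjusted p = 0.047). E2f1 had 7.35, 10.4 and 17.9 against 7.78, 6.50 and 7.08 CPM, with library 1 inside the sham range (log2 change 0.74 ± 0.32, adjusted p = 0.21). Ccnd2 had 14.2, 16.5 and 12.1 against 13.9, 12.8 and 11.1 CPM, Ccne1 9.30, 10.2 and 12.6 against 11.3, 12.3 and 12.4 CPM and Cdk2 6.93, 7.56 and 10.6 against 5.85, 5.82 and 7.01 CPM, all with overlap, and Ccne2 had a log2 change of -0.27 ± 0.24.

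In the replication genes, Mcm5 had 14.4, 18.2 and 35.9 CPM in pontine infarction against 2.41, 3.78 and 3.92 CPM in sham PN, a 6.76-fold rise (adjusted p = 0.0076). Mcm3 had 14.7, 13.9 and 27.4 against 2.92, 3.02 and 3.09 CPM (adjusted p = 0.0051) and Mcm2 20.8, 19.4 and 35.9 against 8.64, 10.3 and 10.3 CPM (adjusted p = 0.015). In all 3 the groups were separate and library 3 was the highest stroke library. Mcm6 rose by 1.60 ± 0.25 and Cdc6 by 2.46 ± 0.57 on the log2 scale (adjusted p = 0.0095 and 0.038). Mcm4 (0.81 ± 0.21, adjusted p = 0.054), Cdc45 (1.57 ± 0.43, adjusted p = 0.061), Gins2 (0.79 ± 0.32), Mcm7 (0.46 ± 0.20) and Pcna did not pass the test, although none of them overlapped with the shams. Pcna had 42.2, 44.7 and 53.8 against 33.8, 31.9 and 29.6 CPM, a log2 change of 0.56 ± 0.17 (adjusted p = 0.083).

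Rrm2 had 11.1, 10.4 and 22.2 CPM against 1.93, 2.72 and 2.62 CPM and rose 5.98-fold (adjusted p = 0.011), beside 5.43-fold after MCAO. Tk1 had 10.4, 18.1 and 44.6 against 5.37, 5.86 and 6.61 CPM, without overlap but with a wide spread (log2 change 2.03 ± 0.54, adjusted p = 0.057). Uhrf1 had 9.16, 12.2 and 19.8 against 3.05, 2.38 and 3.77 CPM and rose by 2.16 ± 0.42 on the log2 scale (adjusted p = 0.019). Brca1 had 3.63, 4.28 and 3.78 against 1.63, 1.81 and 2.66 CPM, separate but not called (adjusted p = 0.26). Rrm1 (0.62 ± 0.17), Tyms (0.56 ± 0.24) and Chek1 (0.63 ± 0.36) had small positive log2 changes that did not pass the test.

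Both chromosome markers rose after pontine infarction. Mki67 had 14.0, 24.4 and 22.7 CPM against 1.25, 2.003 and 1.26 CPM, a 13.5-fold rise (log2 change 3.76 ± 0.50, adjusted p = 0.0054), and the lowest stroke library lay several fold above the highest sham. Top2a had 10.7, 19.1 and 22.2 against 1.93, 2.34 and 1.44 CPM and rose 9.11-fold (adjusted p = 0.015).

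Of the 9 mitotic kinases, cyclins and regulators, 6 rose. Cdk1 had 5.77, 6.36 and 13.7 CPM against 1.204, 1.74 and 1.22 CPM (log2 change 2.63 ± 0.49, adjusted p = 0.017), and Ccnb1 7.86, 7.56 and 17.5 against 2.58, 2.57 and 3.23 CPM (1.97 ± 0.32, adjusted p = 0.011). In both, libraries 1 and 2 were close together and library 3 was well above them. Ccna2 had 5.02, 7.02 and 12.6 against 1.07, 0.642 and 0.862 CPM (adjusted p = 0.015) and Melk 2.14, 2.43 and 5.42 against 0.301, 0.340 and 0.287 CPM (adjusted p = 0.0087). The kinases Plk1 and Aurkb rose by 2.85 ± 0.46 and 3.06 ± 0.75 on the log2 scale. Ccnb2 (2.14 ± 0.57), the transcription factor Foxm1 (1.12 ± 0.29) and Aurka (1.26 ± 0.34) did not pass, with adjusted p between 0.057 and 0.062.

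At the kinetochore and spindle checkpoint, 6 of 8 members rose. Bub1b had 4.70, 7.60 and 13.01 CPM against 0.731, 0.151 and 0.683 CPM (adjusted p = 0.015), and Ndc80, the partner of Nuf2, had 2.93, 4.96 and 4.97 against 0.430, 0.302 and 0.323 CPM (log2 change 3.597 ± 0.45, adjusted p = 0.0051). Neither overlapped with its shams. Bub1 rose by 2.60 ± 0.46, Nuf2 by 2.34 ± 0.42, Cenpf by 3.20 ± 0.59 and Birc5, the survivin gene of the chromosomal passenger complex, by 2.34 ± 0.49. The motor gene Cenpe (1.47 ± 0.38, adjusted p = 0.051) and the checkpoint gene Mad2l1 (0.77 ± 0.21, adjusted p = 0.059) stayed above 0.05.

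Both genes of the anaphase promoting complex rose. Ube2c had 5.02, 5.12 and 14.4 CPM against 0.473, 0.378 and 0.252 CPM, a 22.1-fold change (adjusted p = 0.0075), and Cdc20 7.40, 9.54 and 19.9 against 2.15, 2.83 and 3.23 CPM, a 4.48-fold change (adjusted p = 0.011). The sham levels of Ube2c were under 1 CPM, so that its fold rests on few sham counts. Of the 9 spindle and cytokinesis genes, 8 rose, with Ect2 at 3.21, 3.93 and 7.25 CPM against 0.258, 0.529 and 0.108 CPM (adjusted p = 0.012) and the motor gene Kif20a at 5.40, 7.65 and 15.8 against 1.504, 1.21 and 1.15 CPM (log2 change 2.90 ± 0.46, adjusted p = 0.010). The smallest single count of any member was 3, for Ect2 in sham PN library 3. Prc1, Nusap1, Kif11, Kif23, Racgap1 and Tpx2 rose by 2.68, 2.57, 2.45, 1.95, 1.94 and 1.85 on the log2 scale. Anln was the exception, with 32.5, 28.9 and 27.5 CPM in pontine infarction, all below the 37.1, 40.8 and 37.6 CPM of sham PN (log2 change -0.38 ± 0.23, adjusted p = 0.36).

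Library 3 was the highest of the pontine infarction group for 44 of the 53 members; without it, 22 members were called (5 S phase and 17 mitotic), where 1.78% of all genes were called in either direction, against 4.08% with it. Of the spindle and cytokinesis genes 3 were called without it in place of 8 (Kif11, Kif20a and Ect2), of the mitotic kinases, cyclins and regulators 5 in place of 6, and at the kinetochore and checkpoint 5 in place of 6. The calls depended on the sham libraries, with 12 members called without sham PN library 1, 7 without library 2 and 0 without library 3. Of all genes, 1.04%, 0.301% and 0.0347% were called in either direction in the same fits. Without sham PN library 3, 44 members still had an unadjusted p under 0.05 by edgeR, where 14.6% of all genes did. The median log2 changes in that fit were 1.42 (S phase) and 2.41 (mitotic).

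**Figure D3:**
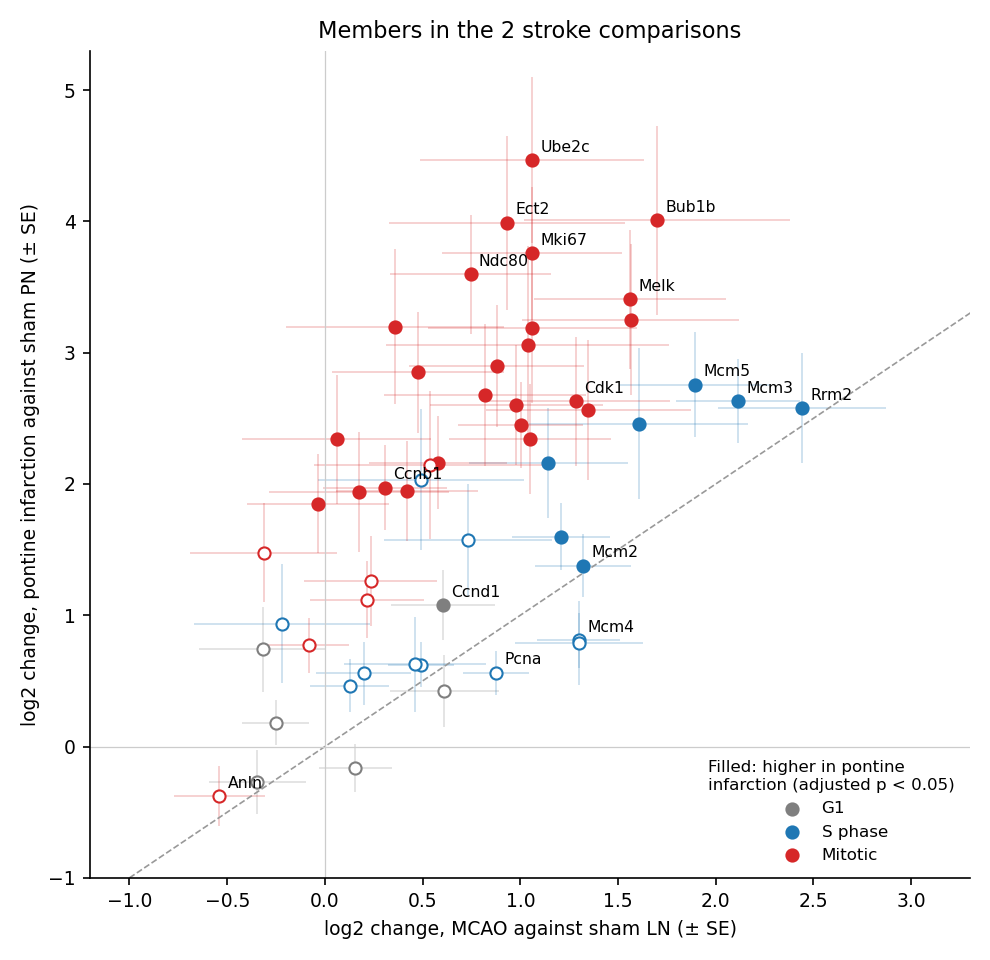
Log2 change after MCAO (horizontal axis) against that after pontine infarction (vertical axis) for the 53 members, with SE bars and the line of equal change; filled points were called higher in pontine infarction. The S phase points Rrm2, Mcm3 and Mcm2 lie near the line, and all 30 mitotic points lie above it.

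The median log2 change was 1.14 after MCAO and 1.38 after pontine infarction over the S phase members, and 0.78 and 2.58 over the mitotic members, but no single member passed the test of the difference. By edgeR, 0 of 53 members and 0% of all genes tested were called for the MCAO change minus the pontine infarction change. At an unadjusted p under 0.05, 23 members were found, 22 mitotic, 1 G1 (E2f1) and 0 S phase, all with the smaller change after MCAO, beside 1826 genes in all (10.7%). DESeq2 called 9 members (Ccnb1, Plk1, Ndc80, Cenpe, Cenpf, Ube2c, Tpx2, Ect2 and Mki67) and 238 genes in all, and limma voom 0 members. The median difference was -1.78 on the log2 scale over the mitotic members, -0.36 over the S phase members and 0.08 over all genes, and the sign was negative for 30 of 30 mitotic and 14 of 17 S phase members.

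The single differences with the smallest adjusted p were those of Ndc80 at -2.85 ± 0.60 (adjusted p = 0.21), Ube2c at -3.41 ± 0.83 and Mki67 at -2.70 ± 0.66 (adjusted p = 0.26). In the shams Ndc80 was higher in sham LN by 1.31 ± 0.44, without overlap (adjusted p = 0.054 by edgeR). Ube2c (0.82 ± 0.61) and Mki67 (0.97 ± 0.47) overlapped. Over the mitotic members the median sham LN minus sham PN difference was 0.21, with 20 positive and 10 negative. The part of the sham levels in these differences was not tested. Of the S phase members, Mcm2 had a difference of -0.06 ± 0.34, Rrm2 of -0.14 ± 0.59 and Pcna of 0.31 ± 0.24, and 2 SE on either side of each take in 0. Of the 30 mitotic members, 2 were called in both comparisons and 22 in pontine infarction and not in MCAO, against 5 and 2 of the 17 S phase members, with 3 S phase members (Mcm4, Gins2 and Pcna) called in MCAO and not in pontine infarction. Without MCAO library 2, the difference was called for 6 mitotic members (Ndc80, Cenpe, Ube2c, Tpx2, Kif11 and Mki67) and for 970 genes in all.

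The contrast between phases was seen in each pontine infarction library but not in each MCAO library. Without the unnumbered library, the median log2 changes after MCAO were close, at 1.05 over the S phase members and 0.99 over the mitotic members. The median log2 difference from the matched shams was 1.22, 0.99 and 0.82 over the S phase members in the MCAO libraries and 1.25, 0.66 and 0.15 over the mitotic members. In the pontine infarction libraries it was 0.84, 1.08 and 1.88 over the S phase members and 2.02, 2.40 and 3.01 over the mitotic members. The mitotic median was thus above the S phase median by more than 1 log2 unit in all 3 pontine infarction libraries and below it in MCAO library 2 and the unnumbered library. In the sham libraries, each set against the other libraries of its group, both medians lay between -0.37 and 0.46. The highest was that of the mitotic members in sham LN library 3.

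**Figure D4:**
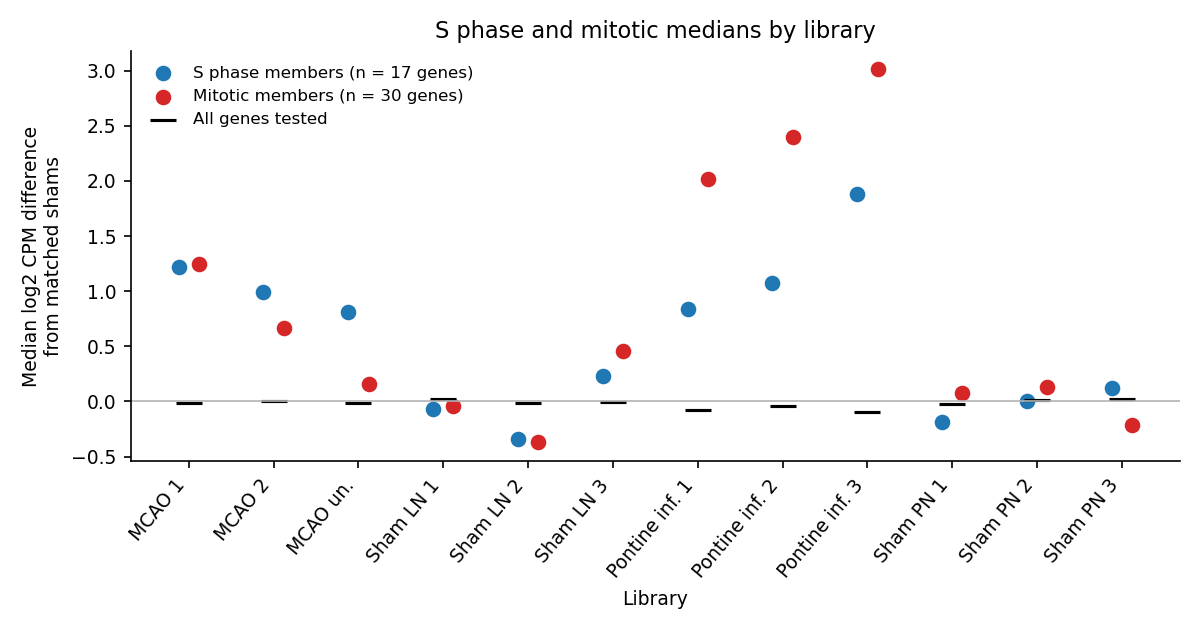
Median log2 CPM difference from the matched shams over the 17 S phase members (blue), the 30 mitotic members (red) and all genes tested (black bars) in each of the 12 libraries. A sham library is set against the other libraries of its group. The red points stand above the blue ones in the 3 pontine infarction libraries, at 2.02 to 3.01 against 0.84 to 1.88, and range from 0.15 to 1.25 among the MCAO libraries, where the blue points range from 0.82 to 1.22.

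The sham groups, which differed in the region genes above, differed in 3 of 53 members, where 21.3% of all genes tested differed. Ccnd2 had 39.8, 46.0 and 47.9 CPM in sham LN against 13.9, 12.8 and 11.1 CPM in sham PN and was 3.53-fold higher in sham LN (log2 difference 1.82 ± 0.18, adjusted p = 4.5e-05). Tpx2, which builds spindle microtubules, had 7.35, 10.04 and 8.03 against 3.31, 4.01 and 2.77 CPM and was higher in sham LN by 1.33 ± 0.37 (adjusted p = 0.025). Anln, a scaffold of the cleavage furrow that oligodendrocytes also use in myelin, had 14.1, 11.2 and 15.2 against 37.1, 40.8 and 37.6 CPM and was lower in sham LN (log2 difference -1.51 ± 0.23, adjusted p = 9.3e-04). The groups did not overlap in any of these 3 genes. The myelin gene Mbp had 10149 to 15035 CPM in sham LN and 30435 to 38989 CPM in sham PN, moving the same way as Anln; its part in the Anln difference was not tested. Of the S phase members edgeR called 0 between the shams and found 2 at an unadjusted p under 0.05; Gins2, which DESeq2 called, had -0.96 ± 0.33 (adjusted p = 0.057 by edgeR). The call of Tpx2 was lost without sham LN library 2 or 3 or any 1 of the sham PN libraries (adjusted p up to 0.096 over the alternatives). Ccnd2 and Anln were called throughout. With the sham libraries fitted alone 9 members were called, beside 39.9% of all genes. DESeq2 called 7 members, beside 26.6% of all genes.

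Cell cycle genes outside the 53 were counted from lists of other replication, mitotic, G1 and inhibitor genes. Over all genes tested, 12.5% rose after MCAO, 3.21% rose after pontine infarction and 21.3% were called between the shams. Of 35 other replication genes tested, 4 rose after MCAO (11.4%, near the share of all genes), Cdt1, Gmnn and Dtl among them, and 6 after pontine infarction (17.1%), with 0 lower. Cdt1, which loads the Mcm ring with Cdc6, had 10.97, 6.56 and 6.92 CPM in MCAO against 1.77, 2.04 and 2.14 CPM, a log2 change of 2.04 ± 0.28 (adjusted p = 0.0021), and Gmnn, the geminin gene that restrains Cdt1, rose by 0.999 ± 0.25 (adjusted p = 0.021). After pontine infarction Clspn, a checkpoint mediator, rose by 3.47 ± 0.56 (adjusted p = 0.011; 0.113 to 0.144 CPM in sham PN), and Mcm10, an initiation factor, by 3.07 ± 0.57 (adjusted p = 0.017). Between the shams 3 were higher and 5 lower in sham LN (22.9%, again near the share of all genes). By smallest adjusted p these were led by Clspn at 5.09 ± 0.57 and Dut, the dUTPase gene, at -0.68 ± 0.13.

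Of 52 other mitotic genes tested, 27 rose after pontine infarction and 0 fell. By smallest adjusted p these were led by the separase gene Espl1 at 2.89 ± 0.44 (adjusted p = 0.0085) and the kinase gene Pbk at 3.66 ± 0.64 (adjusted p = 0.015). The largest log2 change of the list was 3.93. After MCAO 7 rose and 1, the phosphatase gene Cdc25b, fell (-0.70 ± 0.18, adjusted p = 0.023), so that 15.4% of the list was called in either direction, beside 18.6% of all genes. The motor gene Kif18a had 1.35, 1.23 and 2.52 CPM in MCAO against 0.105, 0.371 and 0.230 CPM (log2 change 2.86 ± 0.57, adjusted p = 0.0082), and the spindle gene Tacc3 13.04, 4.79 and 7.84 against 2.56, 2.67 and 2.41 CPM (1.75 ± 0.40, adjusted p = 0.015). The median log2 change of the list was 0.69 after MCAO and 1.91 after pontine infarction, and between the shams 1 gene was called (Ccnf, 1.57 ± 0.48, higher in sham LN).

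Among 19 other G1, RB and E2F genes tested, 6 rose and 1 fell after MCAO, and 4 rose after pontine infarction. Myc, which drives growth and cycle entry, had 34.7, 8.83 and 43.5 CPM in MCAO against 4.08, 3.22 and 5.16 CPM (log2 change 2.80 ± 0.48, adjusted p = 0.0042), and Rbl1, the p107 relative of RB, 2.31, 2.32 and 2.23 against 0.685, 0.778 and 0.689 CPM (1.67 ± 0.35, adjusted p = 0.0093). After pontine infarction Mybl2, the B-Myb factor that turns DREAM targets on, had 4.42, 5.33 and 11.7 against 0.473, 0.642 and 0.755 CPM (3.50 ± 0.53, adjusted p = 0.0085), and the repressor E2f7 rose by 2.15 ± 0.45 (adjusted p = 0.025). Between the shams Cdc25a and E2f2 were lower in sham LN and E2f7 higher, with Cdc25a at -1.39 ± 0.16 and E2f7 at 1.72 ± 0.45.

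Of 5 CDK inhibitor genes tested, 1 was called after MCAO and 0 by edgeR after pontine infarction (1 at an unadjusted p under 0.05; the list was not counted with other tools). Cdkn1a, the p21 gene that p53 induces, had 227, 19.7 and 135 CPM in MCAO and 11.3, 12.2 and 11.7 CPM in sham LN, a log2 change of 3.44 ± 0.73 (adjusted p = 0.010). Every MCAO library lay above the shams, but library 2 was several fold below the others. After pontine infarction Cdkn1a had 97.0, 23.5 and 41.8 against 17.3, 17.8 and 25.2 CPM, with overlap (log2 change 1.43 ± 0.68, adjusted p = 0.25). Between the shams Cdkn1c, the p57 gene, was lower in sham LN (-2.24 ± 0.31, adjusted p = 4.6e-04).

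Markers of some cell types that can divide rose after stroke, while those of others fell or were not called. Their part in the member changes was not tested. The summed level of 10 microglia and macrophage markers was 444 to 779 CPM in MCAO, 287 to 350.1 CPM in sham LN, 618 to 1578 CPM in pontine infarction and 274 to 324 CPM in sham PN, with none at 0. After pontine infarction 7 of the 10 rose, Itgam among them at 3.54 ± 0.44, and the log2 changes over the 10 reached 5.31. After MCAO 4 rose (Itgam, Ptprc, Spi1 and Cd68) and Tmem119, a marker of resident microglia, fell (log2 change -1.84 ± 0.58). In all, 3 of the 10 had negative log2 changes after MCAO, down to -2.09. The 8 oligodendrocyte precursor markers summed to 326 to 480.2 CPM in MCAO against 637 to 782 CPM in sham LN, and to 761 to 891 CPM against 991 to 1360 CPM in pontine infarction and sham PN. Of them 4 fell after MCAO (Gpr17, Olig1, Olig2 and Pdgfra) and 1, Olig2, after pontine infarction. Of all 17008 genes tested, 1032 fell after MCAO and 148 after pontine infarction. Pdgfra, which defines these precursors, had 103, 74.3 and 80.7 CPM in pontine infarction and 84.5, 90.7 and 79.7 CPM in sham PN.

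Neutrophil and monocyte markers summed to 44.5 to 529 CPM in MCAO and 19.95 to 177 CPM in pontine infarction, against at most 4.87 CPM in the shams, where Elane was at 0. Neural stem cell markers summed to 439.8 to 1359 CPM in MCAO and 777 to 1537 CPM in pontine infarction, of which Vim, which reactive astrocytes also express, was the largest part, against 221 to 253 CPM and 392 to 414 CPM in the shams. Gfap, the astrocyte filament, rose by 3.05 ± 0.22 after MCAO and by 1.83 ± 0.21 after pontine infarction. Of the neutrophil and monocyte markers tested, 4 of 4 rose after MCAO and 1, Csf3r, after pontine infarction; of 8 neural stem cell markers, Nes and Vim rose after MCAO and Vim after pontine infarction. Cerebellar granule precursor markers, of which 2 fell after MCAO (Ptch1 and Gli1), summed to 56.8, 101 and 200.3 CPM in pontine infarction libraries 1 to 3, against 129 to 164 CPM in sham PN. Neuroblast, endothelial, T cell and fibroblast markers gave 0, 1, 1 and 0 calls by edgeR after MCAO (2, 5, 1 and 1 at an unadjusted p under 0.05) and 0 calls each after pontine infarction (1, 0, 2 and 1 unadjusted). All of these were higher after stroke, except 1 neuroblast and 1 endothelial marker that were lower after MCAO at an unadjusted p. Of all genes, 35.6% had an unadjusted p under 0.05 after MCAO and 21.6% after pontine infarction. The neuroblast marker Dcx and the endothelial marker Apln were at 0 in every library. Both lie on the X chromosome, where 97.5% of protein-coding symbols were listed at 0 in every library. Their zeros therefore do not show that the genes were silent. Neither could be tested. In all, 7 of 9 neuroblast and 6 of 7 endothelial markers passed the filter on low counts.

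**Figure D5:**
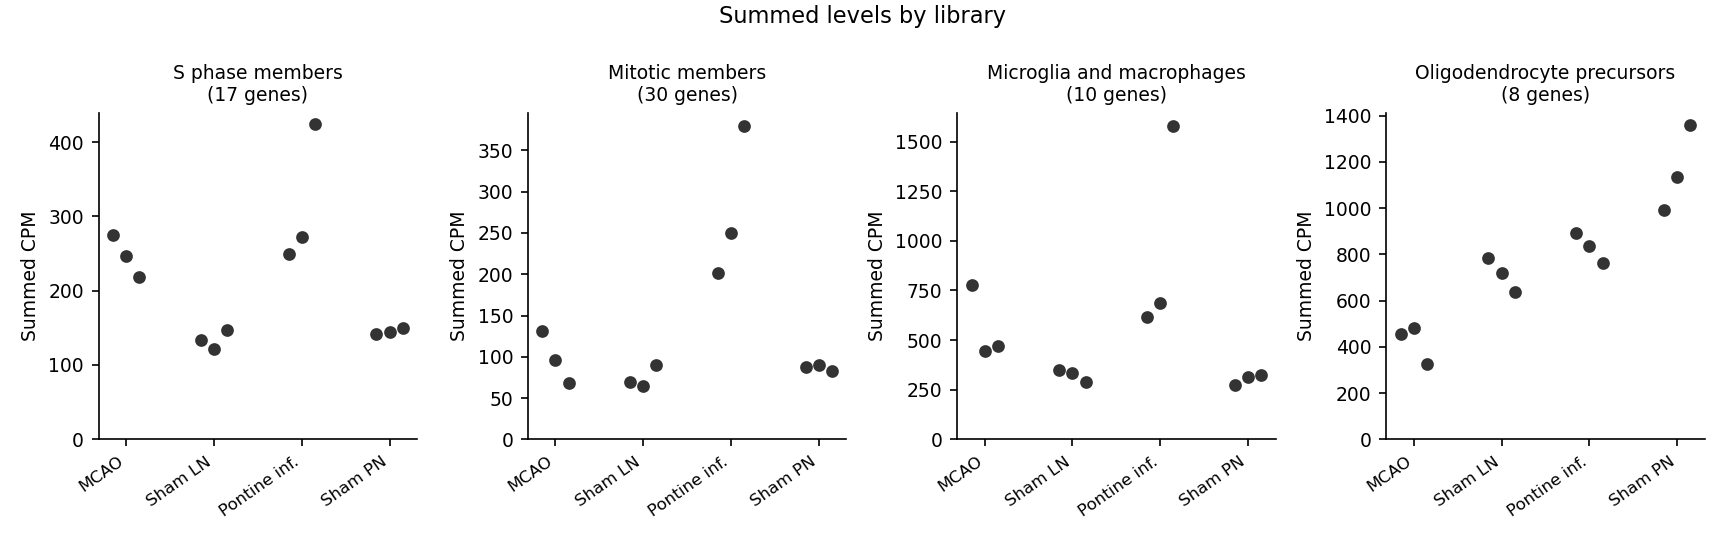
Summed CPM of the 17 S phase members, the 30 mitotic members, 10 microglia and macrophage markers and 8 oligodendrocyte precursor markers in each library (points, 3 a group). The mitotic sum is 202 to 380 CPM in pontine infarction and 82.7 to 90.2 CPM in sham PN, while in MCAO, at 68.2 to 131 CPM, it overlaps with the 65.2 to 89.5 CPM of sham LN.

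The sums are of the same members, so their split is not a separate result. Anln, which did not rise, was a large part of the mitotic sum in sham PN, with a mean of 38.5 of 87.0 CPM. In pontine infarction it was 29.7 of 277 CPM. The S phase members together had 219 to 275 CPM in MCAO against 121 to 148 CPM in sham LN, and 249.7 to 424 CPM in pontine infarction against 142 to 149 CPM in sham PN, with no overlap in either. For the mitotic members the groups were separate after pontine infarction and overlapped after MCAO. Pontine infarction library 3 was the highest of its group for the S phase sum, the mitotic sum and the microglia and macrophage sum alike. This was not particular to these sums. The same library was the highest for neural stem cell, neuroblast, cerebellar granule precursor, endothelial, T cell and fibroblast markers. It was not the highest for oligodendrocyte precursor or for neutrophil and monocyte markers.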

How the data were processed

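The submitters' processing notes name HISAT2 and the assembly Rnor_6.0. Which program counted the reads, with which gene models and whether by strand, is not given in the sources used here. The deposited table holds whole read counts for 37209 gene symbols in 12 columns, as the authors made them, with no normalization. Per the labels' protocols, total RNA with an RNA integrity number above 8 was used. Of the columns, 11 matched a sample title, 1 matched its group only, and 0 were left unused.

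Counts were tested in R 4.3.3 with edgeR 4.0.16 (TMM scaling, filterByExpr with a minimum count of 10 and a minimum total of 15, glmQLFit and glmQLFTest) in 1 fit of all 4 groups, with Benjamini-Hochberg adjustment over the 17008 genes kept. Alternatives were DESeq2 1.42.0 (its size factors and its test), limma 3.58.1 with voom, an unfiltered fit, a fit of genes at 1 CPM or more in 3 libraries, the compared libraries alone, a block on replicate number, and each library left out. The script was tested on simulated data. The members and lists were chosen with earlier results of these data known. Members given by library were Mki67, Top2a, Pcna, Mcm2, Cdk1, Ccnb1, Ccnd1, Ccnd2, Ccne1, E2f1 and Uhrf1, those called between the shams, and the 2 per role with the largest absolute log2 change and at least 1 CPM. From each list of other cell cycle genes, the 2 called genes with the smallest adjusted p were named, and where 5 or fewer were called the others may be named as well. Promoter sequences are RefSeq's on GRCr8, not the build of the counts. No 2 libraries of a group agreed within counting noise.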

Additional observations from a re-analysis of the deposited data

How the results depend on the processing

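Each count of members called was recomputed under the alternatives. After MCAO the members called numbered 10, with 7 to 13 when 1 library was left out, and the S phase members 8, with 7 to 8. Of all genes, 18.6% were called in either direction with all libraries, and 6.56% to 35.2% with 1 left out. The 2 mitotic calls became 1 with DESeq2 size factors, 4 with the DESeq2 test and 0 without a filter, with voom or with the compared libraries alone, and ranged from 0 to 5 with 1 library left out. After pontine infarction 32 members were called with all libraries, and 0 to 34 with 1 left out. The S phase count then ranged from 0 to 8 (7 with all libraries) and the mitotic count from 0 to 25 (24). Of all genes, 0.0347% to 5.6% were called with 1 library left out. The DESeq2 test called 12 S phase members, beside 10.7% of all genes. For the difference between the responses the count of 0 became 9 with the DESeq2 test (beside 1.43% of all genes). It ranged from 0 to 6 with 1 library left out (beside 0% to 5.53% of all genes). Between the shams the 3 calls, beside 21.3% of all genes, became 7 with the DESeq2 test (beside 26.6%) and 9 with the compared libraries alone (beside 39.9%). They ranged from 2 to 3 with 1 library left out (beside 13.5% to 15.2%). No called member changed sign in any alternative. The cause of these shifts was not tested. Low counts limit the mitotic members in the shams, where the group mean of 9 of 30 in sham LN and 12 of 30 in sham PN was under 1 CPM.

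Deviations of libraries with the same replicate number correlated at 0.10 and 0.04 for MCAO with sham LN and at 0.05, 0.15 and 0.15 for pontine infarction with sham PN. They correlated at 0.15, 0.08 and 0.04 for the shams, and at 0.13 and 0.42 for MCAO with pontine infarction, which share only 2 numbers. All of these were positive. Between different numbers the correlations ranged from -0.13 to 0.09, from -0.14 to 0.012, from -0.099 to 0.015 and from -0.36 to 0.23, in the same order. Whether the numbers pair the libraries was thus not settled, and the main fit did not use them. With the replicate block, which leaves out the unnumbered library, 11 members were called after MCAO, 34 after pontine infarction, 0 for the difference and 3 between the shams. Of all genes, 7.95%, 4.68%, 0% and 22% were called in the same order.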
